A study of Mus musculus with 16 samples.

Results

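The xenobiotic and steroid metabolism enzymes described here were the 159 genes, of 21442 in the count table, whose symbols place them in 7 enzyme families. These were 71 Cyp genes of families Cyp1 to Cyp4, 20 Gst, 18 Ugt, 16 Sult, 16 Akr1, 14 Ces and 4 Aldh1a genes. Of the 159, 84 passed the filter on low counts and were tested, and 75 were too low to test. The highest group mean among those 75 was 0.740 CPM, the usual measure that scales the counts of each library to a common total.

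RNA had been taken from live, sorted epithelial cells of the distal colon, from mice aged 6–8 weeks. Every mouse carried the RedMUC298trTg reporter transgene, in which mCherry marks mucin 2, so cells with mCherry signal were goblet cells (GC) and cells without it were the remaining epithelium (EC), which the labels call colonocytes. Libraries labelled WT_GC and WT_EC came from RedMUC298trTg mice, and those labelled SpdefKO_GC and SpdefKO_EC from RedMUC298trTg mice in which Spdef, a transcription factor of goblet cell maturation, had been deleted. Each of the 4 groups held 4 libraries. Goblet cell lysates went over MinElute columns and EC lysates over Mini columns, so fraction and column cannot be told apart.

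These enzymes clear foreign compounds and steroids by successive reactions. Cytochromes P450 (Cyp) insert oxygen, carboxylesterases (Ces) split esters, and aldo-keto reductases (Akr1) and retinal dehydrogenases (Aldh1a) act on carbonyl groups. UDP-glucuronosyltransferases (Ugt), sulfotransferases (Sult) and glutathione transferases (Gst) then attach glucuronic acid, sulfate or glutathione, which makes products soluble for export. In the gut this work is known chiefly from absorptive cells at the luminal surface.

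Gene counts summed to 10085637–17111987 per library. Spdef stood at 280–315 CPM in WT_GC and 294–446 CPM across SpdefKO_GC, with 1.15–3.77 CPM in EC libraries. A gene-level count cannot show which exons were read, so this row does not check the deletion and the genotype rests on the labels. The 16 goblet cell markers summed to 49803–67001 CPM in GC and 687–924 CPM in EC, and the 19 absorptive colonocyte markers, counted without Cyp2c55, to 2619–3787 CPM in GC and 19815–25364 CPM in EC. No absorptive marker was at 0 counts in a GC group or in an EC group.

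The enzymes as a whole were an EC feature. Their summed level was 6890 ± 213 CPM in WT_EC (SD, n = 4 here and below) against 3008 ± 59.0 CPM in WT_GC. With the SpdefKO label the sums were 5809 ± 310 CPM in EC and 2718 ± 170 CPM in GC. Every EC library, from 5425 to 7044 CPM, stood above every GC library, from 2519 to 3076 CPM. The 4 SpdefKO_EC libraries, up to 6137 CPM, also lay below the lowest WT_EC library at 6584 CPM. The Cyp genes made up most of that gap, with 2557 ± 209 CPM in WT_EC and 1648 ± 220 CPM in SpdefKO_EC, followed by Ces with 811 ± 27.1 and 542 ± 54.0 CPM. Akr1 sums, at 1030 ± 48.8 and 1111 ± 51.7 CPM, did not share it. Most of the Cyp part of the gap was Cyp2c55 alone, whose level in each library is given below. Without Cyp2c55 the lowest WT_EC sum and the highest SpdefKO_EC sum all but meet, so the clear separation rests on that gene. In bulk libraries such as these, fewer cells of a type and less RNA per cell cannot be told apart.

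**Figure D1:**
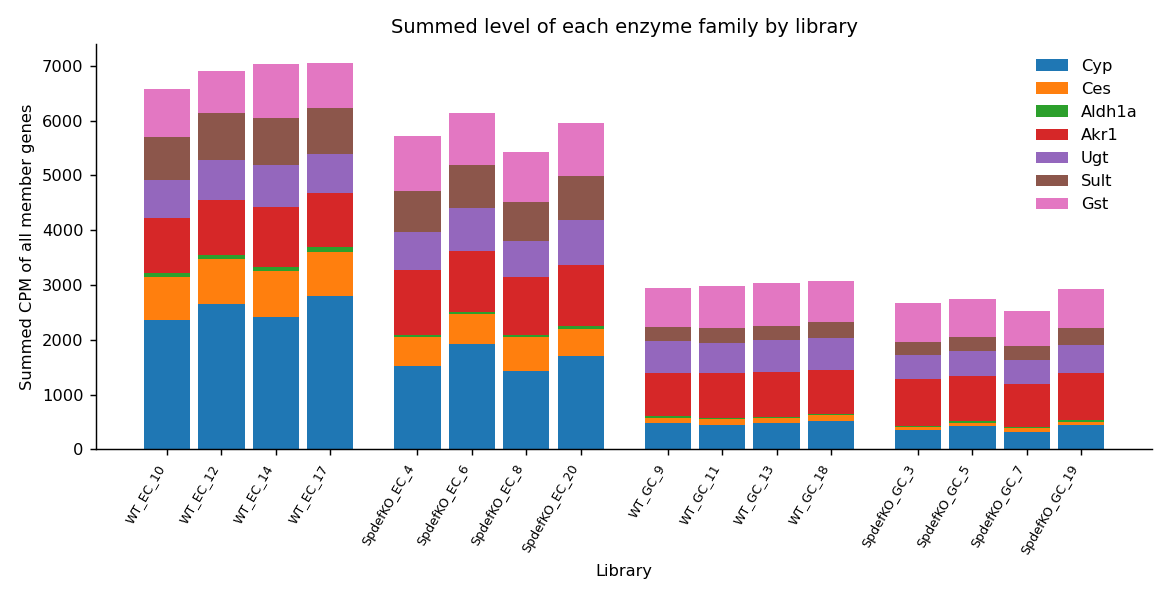
Summed level of each enzyme family (vertical axis, CPM, stacked) in each of the 16 libraries (horizontal axis, grouped by label). The Cyp part falls from 2557 CPM on average in WT_EC to 1648 CPM in SpdefKO_EC and 482 CPM in WT_GC, while the Gst, Ugt and Akr1 parts differ less between the fractions.

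Levels of different genes were compared per kilobase of exon (RPKM). In WT_EC the leading enzyme was Cyp2c55, a P450 that oxidises arachidonic acid, at 519 ± 67.05 RPKM. Behind it came Gsto1 at 168 ± 14.7, Cyp2d34 at 159 ± 15.8 and Sult1d1 at 135 ± 10.4 RPKM, and the spreads of Gsto1 and Cyp2d34 overlapped. In WT_GC the order was another: Akr1a1, an aldehyde reductase, led at 139 ± 6.32 RPKM, then Ugt2b34 at 108 ± 3.56, Gstm1 at 96.9 ± 6.53 and Gsto1 at 96.1 ± 4.10 RPKM, of which the last 2 did not differ beyond their spread. Cyp2c55 stood at only 16.1 ± 5.41 RPKM there.

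The first comparison asked how goblet cells differ from the rest of the epithelium in mice with Spdef. In WT_GC, 56 of the 84 tested enzymes were lower than in WT_EC and 11 were higher, at an adjusted p under 0.05. Over all 12915 tested genes 61.2% passed, 30.1% lower and 31% higher. The median log2 difference of the enzymes was -0.90, against 0.05 for all tested genes. Between SpdefKO_GC and SpdefKO_EC, 58 enzymes were lower and 6 higher (all genes: 56.4% passed, 28.4% lower and 28% higher), with a median of -0.79 against 0.03. Of the 84, 51 were lower in goblet cells with both genotype labels and 4 were higher with both. The 51 were 91.1% of those lower with the WT label, where the share over all tested genes was 78.1%, and 87.9% of those lower with the SpdefKO label (all genes: 82.95%).

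Among the oxygen-inserting enzymes, 21 of 28 tested Cyp genes were lower in WT_GC and 3 higher. Cyp2c55 had the greatest difference of them (WT_GC against WT_EC, log2 change -5.02, SE 0.23, adjusted p = 1.41e-11). Cyp4f14, which hydroxylates leukotrienes, stood at 102, 116, 111 and 86.4 CPM in WT_EC and 3.79, 3.35, 3.49 and 4.36 CPM in WT_GC (log2 change -4.81, SE 0.15, adjusted p = 3.28e-15). Cyp3a13, a drug and steroid oxidising P450 of the intestine, showed the same split (log2 change -3.74, SE 0.15, adjusted p = 3.09e-13). No library of either gene in GC came near an EC library. Higher in WT_GC were Cyp2j6, a fatty acid epoxygenase (0.39 on the log2 scale), Cyp2r1, a vitamin D hydroxylase (0.65), and Cyp2u1 (1.08). Cyp2u1 lay below the level set for naming and is given to complete the count. It passed the filter on low counts only through GC libraries, so its call is no independent support.

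The esterases were divided almost as sharply. In WT_GC, 9 of 11 tested Ces genes were lower and 1 was higher. Ces2c, an intestinal carboxylesterase that activates ester prodrugs, was measured at 279.7, 284, 316 and 298 CPM in WT_EC and at 8.26, 6.64, 7.94 and 10.6 CPM in WT_GC (log2 change -5.16, SE 0.16, adjusted p = 6.16e-15), the greatest fall of any tested member. Ces2b (-3.86), Ces2e (-3.79) and Ces2a (-3.56) followed on the log2 scale, and all 5 tested Ces2 genes were lower. The exception was Ces1c, at 113 counts over the WT_GC libraries and 4 over WT_EC, a ratio of normalised levels of 26.3 (95% counting interval 10.0–98.3). At 1.88 ± 0.487 CPM in WT_GC it remained a low gene, below the level set for naming. Ces1c passed the filter on low counts only through GC libraries, so its values describe the gene and are no independent support. Its intervals cover counting error only and leave out spread among libraries. With the SpdefKO label Ces2c again had the greatest difference of these Ces2 genes (-4.49), Ces2b the smallest (-2.89), and the Ces1c ratio was 31.4 (10.4–155).

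Of the carbonyl enzymes, 5 of 10 tested Akr1 genes and all 3 tested Aldh1a genes were lower in WT_GC. Akr1b7, an aldose reductase relative, was lowest against EC (log2 change -3.25, SE 0.22, adjusted p = 1.88e-10), and Aldh1a1, which oxidises retinal to retinoic acid, fell by 2.18 on the log2 scale. Akr1b10 was higher (log2 change 0.45, SE 0.14, adjusted p = 0.00911), and so was Akr1a1 by 0.17 on the log2 scale. The Akr1a1 call was lost under 9 of the alternatives.

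Conjugating enzymes were more mixed. All 5 tested Sult genes were lower in WT_GC, among them Sult2b1, a sterol sulfotransferase outside the naming rule (-3.20 on the log2 scale), and Sult1b1, which sulfates thyroid hormone and phenols (log2 change -2.92, SE 0.10, adjusted p = 8.07e-15). Of 9 tested Ugt genes 6 were lower and none was higher. The Gst genes differed, with 7 of 18 lower and 5 higher. The mu class gene Gstm5 was measured at 30.6, 38.5, 31.9 and 26.8 CPM in WT_EC and 50.9, 54.7, 56.02 and 58.4 CPM in WT_GC (log2 change 0.78, SE 0.10, adjusted p = 2.23e-06), without overlap. Gstm2, Gstm4, Gstp2 and Gstt2 were higher by 0.42, 0.35, 0.29 and 0.19 on the log2 scale. With the SpdefKO label only 1 tested Gst gene, Gstm5, remained higher in goblet cells and 11 were lower.

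**Figure D2:**
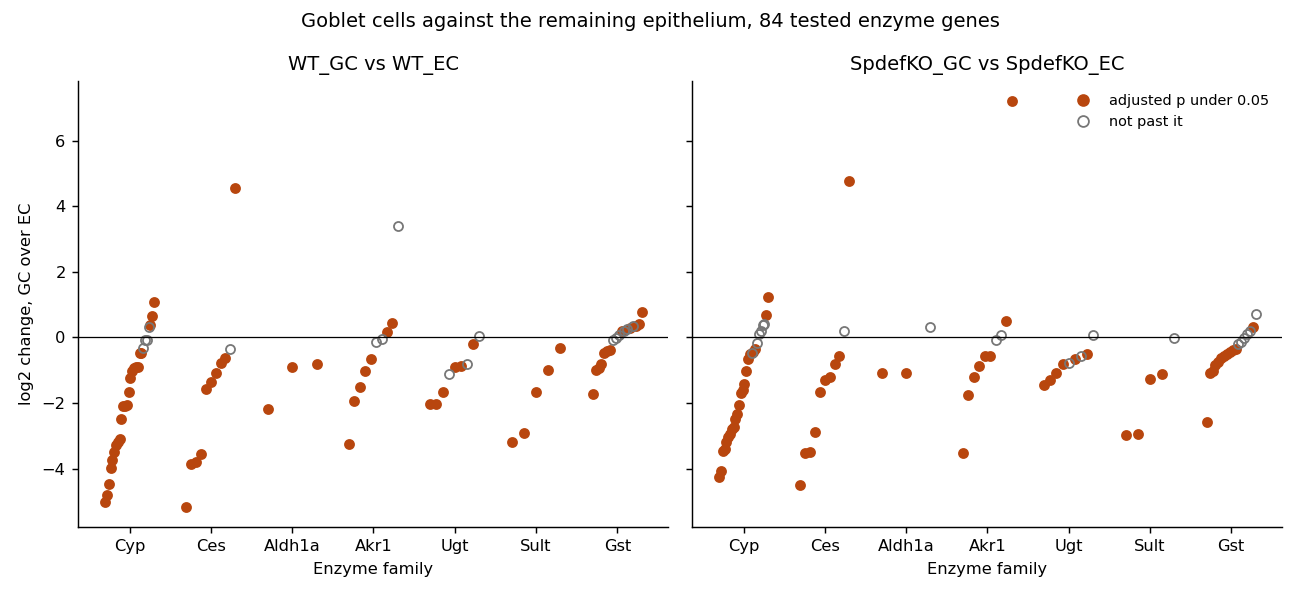
Log2 change of each of the 84 tested enzyme genes between goblet cells and the remaining epithelium (vertical axis), sorted within each family (horizontal axis), for the WT label on the left and the SpdefKO label on the right. Filled points have an adjusted p under 0.05. Most points lie below 0, with 56 lower and 11 higher on the left and 58 lower and 6 higher on the right, and Gst genes cluster near 0.

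Some calls of these comparisons were lost under alternatives. Among the higher genes that of Gstp2 in WT_GC was lost without WT_EC replicate 10 or 14 or WT_GC replicate 13, of Gstm4 without WT_EC replicate 10 or 12 or WT_GC replicate 11 or 13, of Cyp2r1 without WT_EC replicate 12 or 17 or WT_GC replicate 9 or 13, and of Gstt2 under 10 alternatives. With the SpdefKO label the call of Gstm5 was lost without SpdefKO_GC replicate 19, and that of Cyp4f17, a higher gene there (0.68), without SpdefKO_EC replicate 8 or SpdefKO_GC replicate 5. Among the lower genes, Ugt2b34 in WT_GC (-0.19) was lost with upper-quartile scaling, with no filter, without WT_EC replicate 12 or without WT_GC replicate 9, 11 or 13, and Cyp2w1 (-0.90) without WT_GC replicate 9, 11 or 18. In SpdefKO_GC, Cyp2d12 (-1.03) was lost under 6 alternatives, among them SpdefKO_EC replicate 6 or SpdefKO_GC replicate 3 or 7 left out, Ugt2b5 (-1.07) without SpdefKO_EC replicate 8 or SpdefKO_GC replicate 19, and Gstp1 (-0.34) with upper-quartile scaling. Enzymes higher in WT_GC numbered 6 without WT_GC replicate 13 and 7 without WT_EC replicate 10 or 12, and with upper-quartile scaling 11 enzymes were higher in SpdefKO_GC than in SpdefKO_EC. Absorptive markers stood at 2619–3787 CPM in GC and 19815–25364 CPM in EC, and their part in these differences was not tested.

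The next comparison was between genotype labels within EC. In SpdefKO_EC, 20 of 84 tested enzymes were lower than in WT_EC and 3 were higher. Over all tested genes 12.6% passed, 6.54% lower and 6.09% higher, against 23.8% and 3.57% of the enzymes. The enzyme median was -0.17 on the log2 scale and that of all genes 0.0051. The genes lower in SpdefKO_EC were mostly Ces (8 of 11 tested), Cyp (6 of 28) and Ugt (3 of 9) genes. Aldh1a1, Sult1c2 and Gsto2 completed the 20.

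Cyp2c55 fell furthest in absolute level. It was measured at 926, 1097, 925 and 1196 CPM in the WT_EC libraries 10, 12, 14 and 17, and at 448, 487, 360.5 and 413 CPM in the SpdefKO_EC libraries 4, 6, 8 and 20. Every SpdefKO_EC library was below every WT_EC library, and the difference passed the test (log2 change -1.28, SE 0.19, adjusted p = 6.04e-04). The call held under all 14 alternatives, with log2 changes from -1.35 to -1.20. Cyp2c55 is annotated on the plus strand of chromosome 19 (GRCm38, 39007019–39042693). The 250 bases before its RefSeq start (chr19:39006769-39007018, build GRCm38.p6, plus strand) are shown because this gene had the highest level per length of any member in WT_EC, with capitals marking a TATA box, TATAAA, that begins 29 bases before the start.

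Cyp2c55: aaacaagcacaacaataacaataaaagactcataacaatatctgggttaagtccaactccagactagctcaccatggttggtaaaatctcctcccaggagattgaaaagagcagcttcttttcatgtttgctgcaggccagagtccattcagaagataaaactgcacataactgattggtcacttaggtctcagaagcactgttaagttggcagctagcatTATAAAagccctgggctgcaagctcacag

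Such a TATA box was in 13.6% of all 32851 promoter windows of the table, each reaching from 250 bases before to 50 bases after a start. The 3 tested genes whose levels over the 16 libraries were most like Cyp2c55 were Mep1a (r = 0.997), Tat (r = 0.994) and Trpv6 (r = 0.994). These are Pearson correlations of log2(CPM + 0.5), and the 16 points share the fraction and genotype differences.

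Cyp2d12, of the drug-oxidising Cyp2d subfamily, had the greatest fold difference. Its levels were 78.05, 52.2, 71.1 and 113 CPM in WT_EC and 10.8, 28.9, 10.2 and 19.2 CPM in SpdefKO_EC (log2 change -2.19, SE 0.34, adjusted p = 9.85e-04). The groups did not overlap although both were widely spread. Cyp2d10 (-0.85), Cyp2d13 (-0.75) and Cyp2d22 (-0.82) also fell, and the most abundant of the subfamily, Cyp2d34, did not pass (-0.52 on the log2 scale, adjusted p = 0.0758). Cyp2w1 fell by 1.31 on the log2 scale. The 8 Cyp2d members matched to the annotation, which leaves out Cyp2d13, lie in a single cluster on chromosome 15 (82370527–82794294, GRCm38) and share part of their exon sequence with related genes.

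Of 11 tested carboxylesterases 8 fell and 3 did not pass. Of 6 tested Ces1 genes 5 were lower in SpdefKO_EC, as were 3 of 5 tested Ces2 genes. Ces2c stood at 279.7, 284, 316 and 298 CPM in WT_EC and 153, 151, 196 and 144 CPM in SpdefKO_EC (log2 change -0.87, SE 0.12, adjusted p = 2.37e-04), and Ces1f at 44.1, 41.5, 42.5 and 39.8 and 20.2, 20.1, 24.4 and 18.97 CPM (log2 change -1.002, SE 0.11, adjusted p = 9.75e-06). In neither gene did the groups overlap. Ces2a, Ces2b, Ces1g, Ces1d, Ces1b and Ces1e fell by 0.77, 1.07, 1.01, 0.86, 1.15 and 0.43 on the log2 scale. Ces2e and Ces2g did not pass (adjusted p = 0.174 and 0.308). The Ces1 genes lie together on chromosome 8 (93020214–93337308) and the Ces2 genes further along it (104734003–105021178), so members of each cluster are neighbours as well as relatives.

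Aldh1a1 was measured at 51.2, 54.96, 48.5 and 53.9 CPM in WT_EC and 27.5, 26.2, 26.8 and 25.3 CPM in SpdefKO_EC (log2 change -0.98, SE 0.09, adjusted p = 3.06e-06). The groups did not overlap, and the SpdefKO_EC libraries lay within 25.3–27.5 CPM. Its paralogue Aldh1a7 stood at 17.9 ± 1.36 and 21.4 ± 1.83 CPM and did not pass (adjusted p = 0.0911). Of the conjugating enzymes, Ugt1a1, which glucuronidates bilirubin, fell by 1.12 on the log2 scale, Ugt2b5 by 1.54 and Ugt1a6a by 0.58. None of 10 tested Akr1 genes passed in either direction.

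The 3 enzymes that were higher in SpdefKO_EC were the alpha class Gsta1 (log2 change 0.97, SE 0.25, adjusted p = 0.0171), Gstm2 (log2 change 0.43, SE 0.10, adjusted p = 0.00802) and Cyp2j6 (log2 change 0.41, SE 0.08, adjusted p = 0.00242). Gsta1 shares 90.5% of its 50-base windows with any other gene, Gsta2 being the most frequent, so its reads may belong to another gene. Its call was lost without WT_EC replicate 12 or SpdefKO_EC replicate 8.

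**Figure D3:**
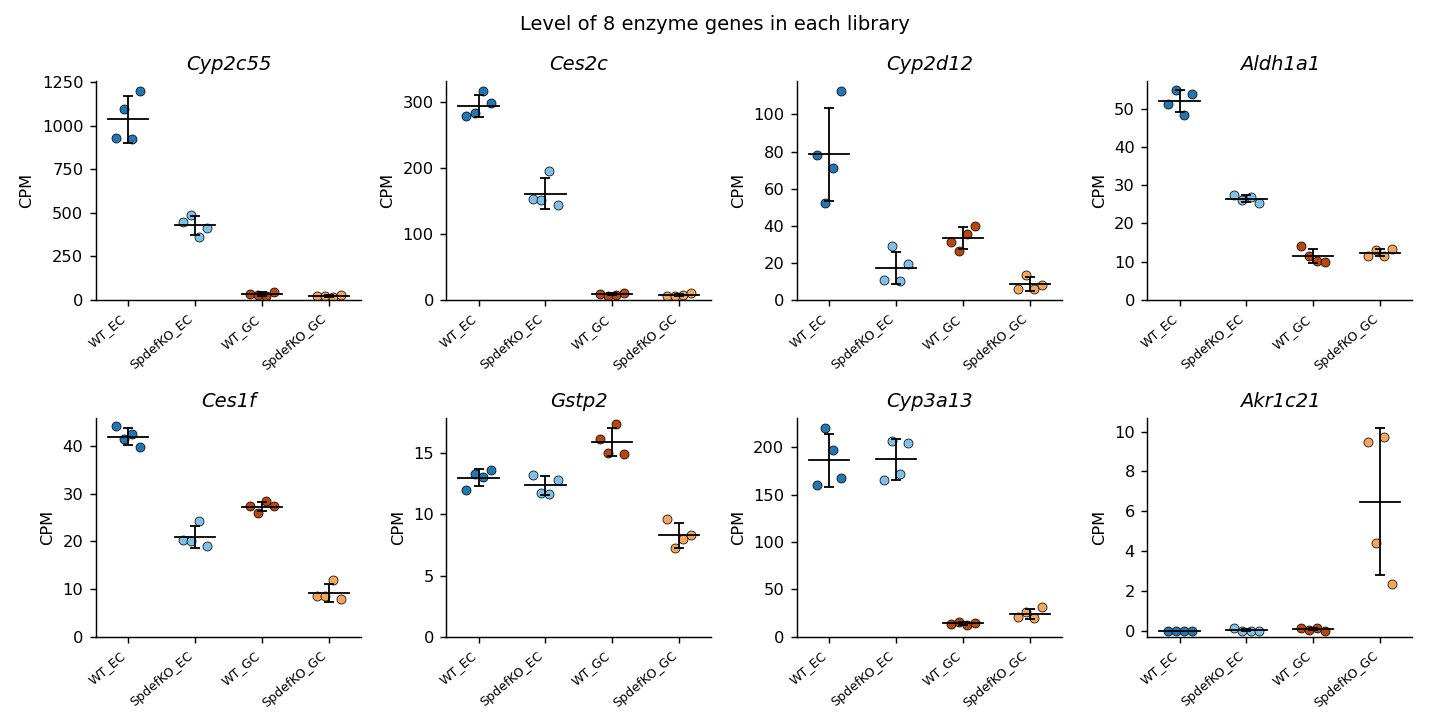
Level of 8 enzyme genes (vertical axes, CPM, each from 0 or just below) in the 4 groups. Points are libraries, the long line is the group mean and the bar is ± 1 SD, n = 4. Cyp2c55, Ces2c, Cyp2d12, Aldh1a1 and Ces1f are lower in SpdefKO_EC than in WT_EC without overlap, and Akr1c21 is above 1 CPM only in the SpdefKO_GC libraries.

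Other cell type markers moved with the same labels. Enteroendocrine markers summed to 607–822 CPM in WT_EC and 275–455 CPM in SpdefKO_EC, and tuft cell markers to 63.9–109 and 22.5–26.2 CPM. A list of 10 markers of proximal gut and liver summed to 263–366 and 131–228 CPM, and stromal and endothelial markers to 30.4–48.4 and 18.97–26.9 CPM. Proliferation markers overlapped, at 991–1514 and 1254–2272 CPM, and 3 of 12 were called higher in SpdefKO_EC. Absorptive colonocyte markers overlapped, at 22166–25364 and 19815–24645 CPM. The part of these cell types in the enzyme differences was not tested.

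Within goblet cells, the comparison that addresses the deletion in the cells that normally express Spdef, 16 of 84 tested enzymes were lower in SpdefKO_GC than in WT_GC and 4 were higher. Over all tested genes 21.4% passed, 11% lower and 10.4% higher, against 19.05% and 4.76% of the enzymes. The median log2 difference was -0.085 for the enzymes and 0.0014 for all genes. The 16 were 5 Gst genes (Gstk1, Gstm5, Gstp2, Gstt1 and Gstt3), 5 Cyp genes (Cyp2d10, Cyp2d12, Cyp2d22, Cyp2d34 and Cyp2f2), 3 Ces genes (Ces1d, Ces1f and Ces2a), Ugt2b34, Ugt2b35 and Sult1a1.

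Akr1c21, a hydroxysteroid dehydrogenase of the aldo-keto reductase family, was close to absent outside SpdefKO_GC. It was measured at 9.46, 4.38, 9.75 and 2.34 CPM in the SpdefKO_GC libraries 3, 5, 7 and 19, and at 0.133, 0.0558, 0.127 and 0 CPM in the WT_GC libraries 9, 11, 13 and 18. In EC it was at 0 counts in 7 of 8 libraries. The SpdefKO_GC libraries varied among themselves, with libraries 3 and 7 high and library 19 low, yet each stood far above every other library. Over the 4 libraries of each group, 399 counts stood against 5 in WT_GC, a ratio of normalised levels of 79.6 (95% counting interval 33.8–247, which covers counting error only). In the F test its adjusted p was 1.61e-05, and the call held under all 14 alternatives. Akr1c21 passed the filter on low counts only through its SpdefKO_GC libraries. It was also chosen with earlier results of these data known. These values thus describe the gene and are no independent support.

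Akr1c21 lies on the plus strand of chromosome 13 (GRCm38, 4574075–4586541), within a cluster of 8 Akr1c members. None of its 50-base windows was shared with another gene. The 4 other tested Akr1c genes, Akr1c12, Akr1c13, Akr1c14 and Akr1c19, did not pass between SpdefKO_GC and WT_GC, with log2 changes of 0.10, 0.11, -0.17 and 0.14. The bases before its RefSeq start (chr13:4573825-4574074, build GRCm38.p6, plus strand) are shown because it alone of the 5 tested cluster genes passed there. The remaining cluster members were too low to test. These bases held none of the motifs searched, so no letter is in capitals.

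Akr1c21: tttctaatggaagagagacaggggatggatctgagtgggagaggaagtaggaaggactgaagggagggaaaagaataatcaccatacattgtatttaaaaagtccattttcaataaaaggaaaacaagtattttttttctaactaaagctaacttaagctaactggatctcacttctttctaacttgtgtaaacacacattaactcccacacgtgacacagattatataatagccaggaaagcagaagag

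Over the 16 libraries the genes most like Akr1c21 were Lgals1 (r = 0.944), Gata2 (r = 0.942) and Gng2 (r = 0.941), again as a description. Enteroendocrine markers were also higher in SpdefKO_GC, at 252–376 CPM, than in WT_GC, at 128–166 CPM, and stromal and endothelial markers stood at 21.2–23.9 against 10.9–15.7 CPM. EC libraries, where Akr1c21 was at or near 0, held 275–822 CPM of enteroendocrine and 18.97–48.4 CPM of stromal and endothelial markers. Immune markers summed to 43.9–52.8 CPM in SpdefKO_GC and 36.6–41.1 CPM in WT_GC. Most of that sum was Cd14, at 39.4 CPM on average in SpdefKO_GC and 34.7 CPM in WT_GC. Ptprc stood at 1.49 and 1.60 CPM. Of 7 tested immune markers 3 were called higher in SpdefKO_GC and 0 lower. Of 4 tested stromal and endothelial markers 1 was called higher and 0 lower. Vim stood at 6.93 CPM in SpdefKO_GC and 1.65 CPM in WT_GC, and Pdgfrb at 11.5 and 9.62 CPM. The part of these cell types in the level of Akr1c21 was not tested.

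Cyp3a13 and Cyp4f14, low in goblet cells, were less so with the SpdefKO label. Cyp3a13 was at 13.4, 15.6, 12.6 and 13.9 CPM in WT_GC and 20.4, 25.8, 19.7 and 31.1 CPM across SpdefKO_GC (log2 change 0.80, SE 0.15, adjusted p = 9.05e-04), and Cyp4f14 at 3.79, 3.35, 3.49 and 4.36 and 5.91, 5.07, 5.44 and 8.81 CPM (log2 change 0.76, SE 0.16, adjusted p = 0.00274). Groups did not overlap in either gene. Akr1b10 was the remaining gene of the 4 (log2 change 0.48, SE 0.13, adjusted p = 0.0152). Absorptive markers summed to 2619–3062 CPM in WT_GC and 3097–3787 CPM across SpdefKO_GC, 11 of 19 were called higher, and their part in the rise of Cyp3a13 and Cyp4f14 was not tested. Cyp4f14 is among 7 Cyp4f members that lie within 4.7–5.2 Mb of Spdef on chromosome 17, and no other of the 6 tested changed with genotype in either fraction.

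Of the genes that were lower, Ces1f had the smallest adjusted p. It was at 27.4, 25.99, 28.4 and 27.3 CPM in WT_GC and 8.43, 8.48, 11.9 and 7.89 CPM across SpdefKO_GC (log2 change -1.57, SE 0.11, adjusted p = 1.58e-08). The highest SpdefKO_GC library, 7, was still below the lowest WT_GC library. Ces1d, a lipid ester hydrolase, fell by 1.09 on the log2 scale. Cyp2d12 fell from 33.3 ± 5.81 to 8.46 ± 3.65 CPM (log2 change -1.97, SE 0.36, adjusted p = 0.00137), and Cyp2d34 from 104 ± 9.41 to 54.8 ± 18.4 CPM (log2 change -0.93, SE 0.19, adjusted p = 0.00266). Cyp2f2, which oxidises aromatic compounds, fell by 1.11 on the log2 scale and Cyp2d22 by 0.72. Cyp2d10 fell by 0.80, a call that was lost without WT_GC replicate 13 or 18, without SpdefKO_GC replicate 3, 7 or 19, and with no filter on low counts.

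Of the 16 lower genes 8 were conjugating enzymes. Gstp2, a pi class glutathione transferase, was measured at 16.2, 15.1, 17.4 and 14.9 CPM in WT_GC and 9.63, 7.23, 7.98 and 8.31 CPM across SpdefKO_GC (log2 change -0.94, SE 0.10, adjusted p = 2.73e-06), without overlap. Its neighbour and near copy Gstp1 stood at 62.4, 61.4, 65.99 and 56.03 and 68.1, 49.1, 57.2 and 60.7 CPM, overlapping (log2 change -0.06, SE 0.10, adjusted p = 0.681). Of the 50-base windows of Gstp2 54.3% were shared with any other gene, and of those of Gstp1 33.7%. Part of the reads of this pair may thus not have been assignable to either gene. Gstt1, Gstt3 and Gstk1 fell by 0.63, 0.44 and 0.40 on the log2 scale. Ugt2b34, the most abundant Ugt gene per length, was at 482, 446, 474 and 469 and 342, 354, 347 and 402 CPM (log2 change -0.37, SE 0.08, adjusted p = 0.00253), and Ugt2b35 fell by 0.69. Gstm5 and Sult1a1, a phenol sulfotransferase, fell by 0.32 and 0.50. The Gstm5 call was lost without WT_GC replicate 11, 13 or 18 or SpdefKO_GC replicate 3 or 7, and that of Sult1a1 without any of these or SpdefKO_GC replicate 19, or with no filter.

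The promoters of the Gstp pair are printed because Gstp2 passed the test and its near copy did not. Both are on the minus strand of chromosome 19 (chr19:4042222-4042471 and chr19:4037913-4038162, build GRCm38.p6) and show the 250 bases before each RefSeq start, 5′ to 3′. Capitals mark CCGGAT, a core of sites bound by Spdef and its relatives, here read as its reverse complement, and GCGTG, the core of the aryl hydrocarbon receptor site.

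Gstp2: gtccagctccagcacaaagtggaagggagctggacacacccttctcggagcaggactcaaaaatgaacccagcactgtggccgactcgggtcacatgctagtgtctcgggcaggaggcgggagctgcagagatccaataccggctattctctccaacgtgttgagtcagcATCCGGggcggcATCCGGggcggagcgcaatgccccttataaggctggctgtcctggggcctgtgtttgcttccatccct

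Gstp1: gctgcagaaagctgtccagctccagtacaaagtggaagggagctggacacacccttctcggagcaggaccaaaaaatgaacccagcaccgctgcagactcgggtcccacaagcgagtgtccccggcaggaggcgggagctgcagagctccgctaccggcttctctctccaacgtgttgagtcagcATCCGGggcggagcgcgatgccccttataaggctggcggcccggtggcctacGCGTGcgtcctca

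Gstp2 has CCGGAT beginning 80 and 68 bases before the start, and Gstp1 has it 65 bases before and GCGTG 13 bases before. The 6 motifs were searched on either strand of the 300-base windows, and none of their letter strings contains another. All windows of the table held CCGGAT in 6.04%, GCGTG in 32.4%, TGACNNNGC of the antioxidant response in 12.4%, CAAAGTCC of Hnf4a in 1.42% and TTTATG of Cdx factors in 11.9%. Promoters were found for 133 members, 70 of them tested, and the 151 member windows held these motifs in 2.65%, 19.2%, 7.95%, 8.61% and 15.2%, and TATAAA in 25.8%. Of the 85 windows of tested members, 2 held CCGGAT (2.35%), and these were the Gstp pair. It was in 1 of 12 windows of members lower in SpdefKO_GC (8.33%) and in 0 of 17 of those lower in SpdefKO_EC. A match describes letters only.

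Between the fractions, 6 enzymes were lower with the SpdefKO label in both, namely Ces1d, Ces1f, Ces2a, Cyp2d10, Cyp2d12 and Cyp2d22. They were 6 of the 20 lower in EC (30%) and 6 of the 16 lower in GC (37.5%). Over all tested genes 206 were lower in both, 24.4% of those lower in EC and 14.5% of those lower in GC. No member of the 84 was called in opposite directions. Of all 12915 tested genes, 83 were lower in EC and higher in GC and 33 the other way. Opposite calls were thus rare over all genes too, and their absence among 84 enzymes is near that share. Cyp2c55, lower in SpdefKO_EC, was at 31.7, 29.9, 20.5 and 46.6 CPM in WT_GC and 20.9, 23.00, 16.8 and 29.3 CPM across SpdefKO_GC, overlapping (log2 change -0.51, SE 0.21, adjusted p = 0.0977). It passed there with DESeq2 or without WT_GC replicate 13, at adjusted p-values over the alternatives from 0.0206 to 0.323.

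**Figure D4:**
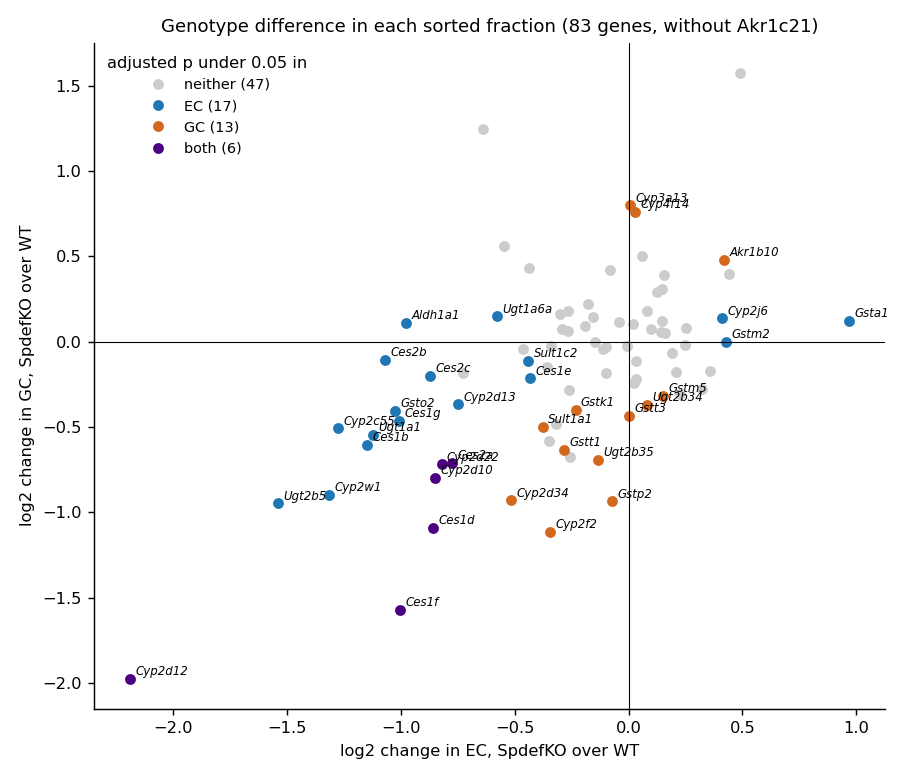
Log2 change with the SpdefKO label in EC (horizontal axis) and in GC (vertical axis) for 83 tested enzyme genes, without Akr1c21. Colours give the fraction in which the adjusted p was under 0.05, and called genes are named. The 6 genes called in both fractions lie at lower left, 17 were called in EC alone and 13 of those drawn in GC alone.

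Whether a genotype difference depended on the fraction was tested as an interaction, the log2 change in GC minus that in EC. Of 84 enzymes 4 were higher and 7 lower, 4.76% and 8.33%, against 4.88% and 4.65% of all tested genes, of which 9.53% passed. The share of lower enzymes rested on single libraries. It was 2.33% without WT_EC replicate 17 (all genes: 2.97%) and 2.35% without SpdefKO_GC replicate 5 (3.56%), below that of all genes. Aldh1a1, which fell in EC, was at 11.5 ± 1.83 and 12.4 ± 0.979 CPM in the GC groups (interaction log2 change 1.09, SE 0.14, adjusted p = 5.30e-05). Gstp2, lower in SpdefKO_GC, was at 13.02 ± 0.700 and 12.4 ± 0.786 CPM in the EC groups (interaction log2 change -0.86, SE 0.14, adjusted p = 7.98e-04). Cyp3a13 (0.79 on the log2 scale) and Ugt2b34 (-0.45) also differed, and neither passed between the EC groups. These 4 calls held under every alternative.

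The other 7 interaction calls were less steady. Those of Cyp4f14 (0.73) and Ugt1a6a (0.73) were lost without WT_GC replicate 13, and that of Cyp4f14 also without WT_GC replicate 11 or with limma-voom. Ces1f (-0.57) was lost without WT_EC replicate 12 or 17, SpdefKO_EC replicate 8 or SpdefKO_GC replicate 3, 5 or 19. Ugt2b35 (-0.56) was lost without WT_EC replicate 10, 12 or 17, SpdefKO_EC replicate 20, WT_GC replicate 9 or 18 or SpdefKO_GC replicate 3, 5 or 7. Gstt3 (-0.44) was lost without WT_EC replicate 12 or 17, SpdefKO_EC replicate 4 or 20, WT_GC replicate 9 or 13 or SpdefKO_GC replicate 5, 7 or 19. Akr1c14 (-0.53) and Gstm5 (-0.47) were lost under 18 and 15 of the alternatives, in which scaling by RLE was 1 for each. Cyp2c55 did not pass (log2 change 0.77, SE 0.28, adjusted p = 0.101), so its fall in EC is not shown to differ from its smaller change in GC, though it passed with DESeq2 or without WT_GC replicate 18. Akr1c21 did not pass either (adjusted p = 0.956), but it passed with DESeq2 and with limma-voom, the lowest adjusted p being 0.0337. Its fitted change, with 0 counts in most EC libraries, depends on the prior count and is not given.

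The other genes of the pathway were read against the same shares of all tested genes, 10.4% higher and 11% lower in SpdefKO_GC and 6.09% higher and 6.54% lower in SpdefKO_EC. Of 24 tested genes in a list of nuclear receptors, sensors and their regulators, 3 were higher (12.5%) and 1 lower (4.17%) in SpdefKO_GC. In SpdefKO_EC none was higher and 2 were lower (8.33%). The shares thus lay near those of all genes or below them. Ppard, a fatty acid receptor (log2 change 0.54, SE 0.14, adjusted p = 0.0124), Ahr, the aryl hydrocarbon receptor (log2 change 0.40, SE 0.09, adjusted p = 0.00404), and Nr1i2, the pregnane X receptor (log2 change 0.29, SE 0.09, adjusted p = 0.0266), were those higher in GC. The Nr1i2 call was lost without WT_GC replicate 13 or SpdefKO_GC replicate 19. Against WT_EC, 17 of the 24 were lower in WT_GC (70.8%) and 1 was higher (4.17%). In that comparison 30.1% of all tested genes were lower and 31% higher.

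Of the genes that supply cofactors, 7 of 20 tested were higher (35%) and 1 lower (5%) in SpdefKO_GC, and 6 were higher (30%) and 3 lower (15%) in SpdefKO_EC. Slc7a11, the cystine carrier that feeds glutathione synthesis, was at 19.3 CPM on average in WT_GC and 28.4 CPM across SpdefKO_GC (log2 change 0.55, SE 0.11, adjusted p = 0.00146), and it rose in SpdefKO_EC too (0.99). Slc35d1, which carries UDP-sugars for glucuronidation, rose in SpdefKO_GC by 0.60 and Me1, a source of NADPH, by 0.79 on the log2 scale. The Me1 call was lost without WT_GC replicate 9 or 11 or SpdefKO_GC replicate 3.

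Among 29 other tested xenobiotic enzymes, 2 were higher (6.90%) and 5 lower (17.2%) in SpdefKO_GC. Mgst2, a microsomal glutathione transferase, was at 91.2 CPM in WT_GC and 43.9 CPM across SpdefKO_GC (log2 change -1.05, SE 0.08, adjusted p = 2.65e-08). Cbr2, a carbonyl reductase, was at 38.7 and 15.4 CPM (log2 change -1.33, SE 0.18, adjusted p = 5.84e-05), and Ephx2, an epoxide hydrolase, fell by 0.62 on the log2 scale. Mgst2 and Cbr2 were both higher in WT_GC than in EC, unlike most members, and the SpdefKO_GC means came close to or below those of EC. In EC, 3 of the 29 were higher (10.3%) and 1 lower (3.45%) with the SpdefKO label.

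Of 17 tested transporters 4 were higher (23.5%) and 3 lower (17.6%) in SpdefKO_GC, and 1 was higher (5.88%) and 3 lower (17.6%) in SpdefKO_EC. Abcg2, an exporter of conjugates, rose in SpdefKO_GC (log2 change 0.66, SE 0.15, adjusted p = 0.00391), and the uptake carrier Slco2b1 fell there (log2 change -0.89, SE 0.22, adjusted p = 0.00784) and in SpdefKO_EC (-0.85). Of 19 steroid and sterol genes 1 was higher and 1 lower in SpdefKO_GC, 5.26% each. Hsd17b2, which inactivates sex steroids, was the higher one (0.38) and the sterol hydroxylase Cyp27a1 lower (-0.73). The Cyp27a1 call was lost without WT_GC replicate 13, and that of Hsd17b2 without WT_GC replicate 13 or SpdefKO_GC replicate 5 or 19. Of 18 retinoid genes none was higher and 4 were lower (22.2%) in SpdefKO_GC, among them the retinol carrier Rbp4 (log2 change -0.66, SE 0.11, adjusted p = 2.44e-04), Retsat, a retinol saturase (-0.49), and Sdr16c6 (-0.74), the last called only with WT_GC replicate 13 included. In SpdefKO_EC none of the 18 was higher and 2 were lower (11.1%).

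Relatives among these families can share reads. Of the members matched to the annotation, 57 shared over 10% of their 50-base windows with another gene and 16 over 50%. The 101 members with at most 10% shared, 59 of them tested, gave 12 lower (20.3%) and 2 higher (3.39%) in SpdefKO_EC. All tested genes gave 6.54% and 6.09% there. In SpdefKO_GC these members gave 12 lower (20.3%) and 4 higher (6.78%), against 11% and 10.4% of all tested genes. Against EC they gave 39 lower (66.1%) and 9 higher (15.3%) in WT_GC, where all tested genes gave 30.1% and 31%.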

How the data were processed

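The authors deposited raw counts, as whole numbers for each gene symbol in each of 16 libraries. A stranded TruSeq kit for total RNA, with Ribo-Zero Gold depletion, and paired-end reads were used, per the labels' protocols. Tools listed without a role in the submitters' processing notes are STAR 2.4.0f, HTSeq 0.6.1p1, FastQC 0.11.2 and DESeq2 1.14, with build mm10. Neither the annotation nor the strand setting was given in the sources used here, and overlapping or antisense genes may share reads. A second deposited table, of normalized signal, was not used. Rows that name no gene held 47.1–54.7% of each library's counts and were left out.

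The members and lists were chosen with earlier results of these data known. Counts were scaled by TMM, filtered with filterByExpr and fitted with edgeR 4.0.16 (R 4.3.3), all 16 libraries in 1 model, with robust quasi-likelihood F tests and Benjamini-Hochberg adjustment over 12915 genes (threshold 0.05). CPM refers to TMM-scaled totals, and SE is the absolute log2 change over the square root of F. RPKM divides CPM by GENCODE M21 union exon length (GRCm38, the assembly of mm10). Promoters came from RefSeq (GRCm38.p6). The common coefficient of variation was 11.7%, and replicates differed by more than counting noise in every pair. In chi-square per degree of freedom, SpdefKO_EC libraries 4 and 8 were closest in their group (6.33) and 6 and 8 furthest (32.5). In SpdefKO_GC libraries 3 and 7 were closest (6.52) and 3 and 5 furthest (24.3). Nothing in the labels tells whether each library had its own mouse. The p-values thus refer to spread among libraries, which may be technical.

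Named members are Akr1c21 and Cyp2c55, the 8 called members with the greatest change in each direction of each comparison with at least 2 CPM in the higher group, the 3 most abundant per length in each family, the 3 genes of each pathway list with the greatest called change between SpdefKO_GC and WT_GC, and the 3 genes most like Akr1c21 or Cyp2c55. Other called members are named where a whole group is listed. Alternatives were RLE and upper-quartile scaling, no filter, DESeq2 1.42.0, limma-voom (limma 3.58.1), only the groups compared and leaving out each library in turn. The scripts were tested on simulated data.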

Additional observations from a re-analysis of the deposited data

Results flagged for a closer look

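Among the 181 groups of 4 libraries examined, 9 held a library whose gap to its nearest neighbour exceeded Dixon's 95% critical value, where chance gives about 1 in 20 groups. In WT_EC, library 17 was high for Cyp2d22 (31.2 CPM against 27.1–27.3 CPM in the others) and for Cyp2d9 (32.4 against 18.3–20.5 CPM), and library 10 was high for Aldh1a7 (19.9 against 17.1–17.4 CPM). In WT_GC, library 18 was high for Cyp2d22 (3.82 against 2.53–2.68 CPM), library 13 high for Gstt2 (39.5 against 34.8–35.2 CPM) and library 9 low for Gstm2 (62.4 against 72.8–74.0 CPM). In SpdefKO_EC, library 4 was high for Akr1b10 (13.8 against 10.9–11.4 CPM) and library 6 low for Sult1b1 (217.7 against 258–265 CPM). In SpdefKO_GC, library 7 was high for Ces1f (11.9 against 7.89–8.48 CPM), below the WT_GC libraries all the same.

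The genotype difference of 11 enzymes differed between goblet cells and the remaining epithelium by the interaction test. Of the 84 tested, 4 were higher (4.76%) and 7 lower (8.33%), against 4.88% and 4.65% of all tested genes. The share of lower enzymes was 2.33% without WT_EC replicate 17, where that of all genes was 2.97%. The log2 change in GC minus that in EC was 1.09 for Aldh1a1, 0.79 for Cyp3a13, 0.73 for Cyp4f14 and 0.73 for Ugt1a6a. It was -0.86 for Gstp2, -0.57 for Ces1f, -0.56 for Ugt2b35, -0.53 for Akr1c14, -0.47 for Gstm5, -0.45 for Ugt2b34 and -0.44 for Gstt3. Their levels and the alternatives that end each call are given with the comparisons.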

How the results depend on the processing

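Of 146 calls of named genes, 117 held under every alternative run on them, 29 were lost under at least 1, and none changed direction. No paired analysis was run, because the groups share no replicate numbers in the labels. Numbers of GC and EC libraries with the same genotype label are neighbours (3 and 4, 9 and 10, 17 and 18, for example). The labels do not say that neighbours share a mouse, so such a pairing was not tested. The tests between fractions and of the interaction treated all libraries as independent. Leaving out each library gave 4–5 enzymes higher and 13–17 lower in SpdefKO_GC against WT_GC, 6–12 and 50–57 in WT_GC against WT_EC, 5–7 and 55–59 in SpdefKO_GC against SpdefKO_EC, 2–6 and 16–27 in SpdefKO_EC against WT_EC, and 2–8 and 2–9 for the interaction. The 6 higher in SpdefKO_EC came without WT_EC replicate 14, and the extremes of higher interactions, 2 and 8, without WT_GC replicate 13 and SpdefKO_GC replicate 3. The 27 lower in SpdefKO_EC, in place of 20, came without SpdefKO_EC replicate 6, where 8.21% of all tested genes were lower. The lower interactions, 7 with all libraries, numbered 2 without WT_EC replicate 17 or SpdefKO_GC replicate 5, 3 without WT_EC replicate 12, SpdefKO_EC replicate 20 or SpdefKO_GC replicate 7, and 4 without SpdefKO_EC replicate 4, WT_GC replicate 9, 13 or 18 or SpdefKO_GC replicate 3 or 19. Upper-quartile scaling gave 11 enzymes higher in SpdefKO_GC than in SpdefKO_EC, in place of 6, and DESeq2 gave 5 higher in SpdefKO_EC, in place of 3, and 8 higher interactions, in place of 4. The cause was not tested.

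Over all genes, upper-quartile scaling moved the median of SpdefKO_GC against SpdefKO_EC from 0.031 to 0.15 on the log2 scale, with 4752 higher and 3047 lower genes in place of 3619 and 3666. It gave 533 higher and 1079 lower in SpdefKO_EC, in place of 787 and 844, and the alternatives together ranged over 380–1183 higher and 560–1079 lower there. Interaction calls over all genes ranged over 459–838 higher and 387–718 lower, in place of 630 and 601. No value for Akr1c21 between the EC groups could be had without SpdefKO_EC replicate 4, where all counts are 0. The 75 members left out by the filter on low counts, none above 0.740 CPM in any group mean, were tested only in the alternative with no filter.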
